A study of Drosophila melanogaster with 20 samples.

Results

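Gene expression in female heads 0-2 hours post-mating was read from 4 two-channel oligonucleotide arrays of Drosophila melanogaster, each of which set heads of mated females directly against heads of age-matched virgin females. A probe was kept where it had a value in each dye orientation, that is on replicate 1 or 2 and on replicate 3 or 4, and control probes were left out. This gave 2969 probes, of 15744 non-control probes on the print, of 5495 with any value on these arrays and of 3871 with at least 2 values. Of the 2969 probes, 1232 had a value on 4 arrays, 1324 on 3 and 413 on 2. The table of ratios names no gene. Names came from matching mean ratios to the study's lists of top genes, which named 178 of the probes, 40 of them through the list for 0-2 h and 138 through the lists for later heads and for brains, and left 2791 without a name.

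Mated females were Canton S, paired at an age of 5 days with w; P[UAS-dj-GFP] males, 10 females to 20 males, for 2 h. After the 2 h, those with green fluorescence of transferred sperm in the abdomen were picked under CO2 and snap frozen. A female could have mated at any point of the 2 h, so 0-2 h is the range of time since mating. Virgin females were Canton S of the same age that had met no male and were also put under CO2. The paper allows that virgins may have been exposed for slightly longer, which was not tested here. About 100 heads made a sample, 20 µg of total RNA was reverse transcribed from oligo dT, and the labels call the 4 arrays independent biological samples. The series holds 20 arrays, the others being heads at 24, 48 and 72 h and dissected brains at 24 h. The values are ratios without levels, so whether the tissue is head could not be checked from the level of any marker.

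Copulation transfers sperm and seminal fluid proteins, sex peptide among them, which lower the receptivity of the female to further males and raise egg laying. The head holds the brain, the eyes and also fat body, the tissue that stores protein, lipid and glycogen and secretes proteins into the hemolymph. Heads were ground whole, so a shift in RNA per cell and a shift in the number of cells of a type cannot be told apart. No gene's sequence is shown, since none was among the reference tables used here.

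The values turned with the dye more than with mating. Replicates 1 and 2 carried mated RNA in Cy3, whereas replicates 3 and 4 carried it in Cy5, and the deposited ratios are mated over virgin on every array. The direction rests on the antilog of a probe's mean value being the mated/virgin ratio that the study lists; had replicates 3 and 4 not been turned, the component called dye-dependent below would be the response to mating, and the 2 would change places. On the 24 h arrays the storage protein gene Lsp2 had 1 sign in both orientations, at -3.71 in Cy3 and -4.42 and -4.49 in Cy5. Over the probes with both values, replicates 1 and 2 correlated at r = 0.72 (2433 probes) and replicates 3 and 4 at r = 0.61 (1355 probes), whereas pairs from opposite orientations gave r of -0.46 to -0.39. These are correlations across probes, which share arrays and are no replicates. The mean of replicates 1 and 2 had the sign of the mean of replicates 3 and 4 for 931 of the 2969 probes, or 31.4%. Of the 1232 probes with 4 values, 140 (11.4%) had 1 sign on every array, 85 of them higher and 55 lower in mated females. The arrays held between 1818 (replicate 4) and 4896 (replicate 2) non-control values, with median ratios of -0.05 to 0.09.

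**Figure D1:**
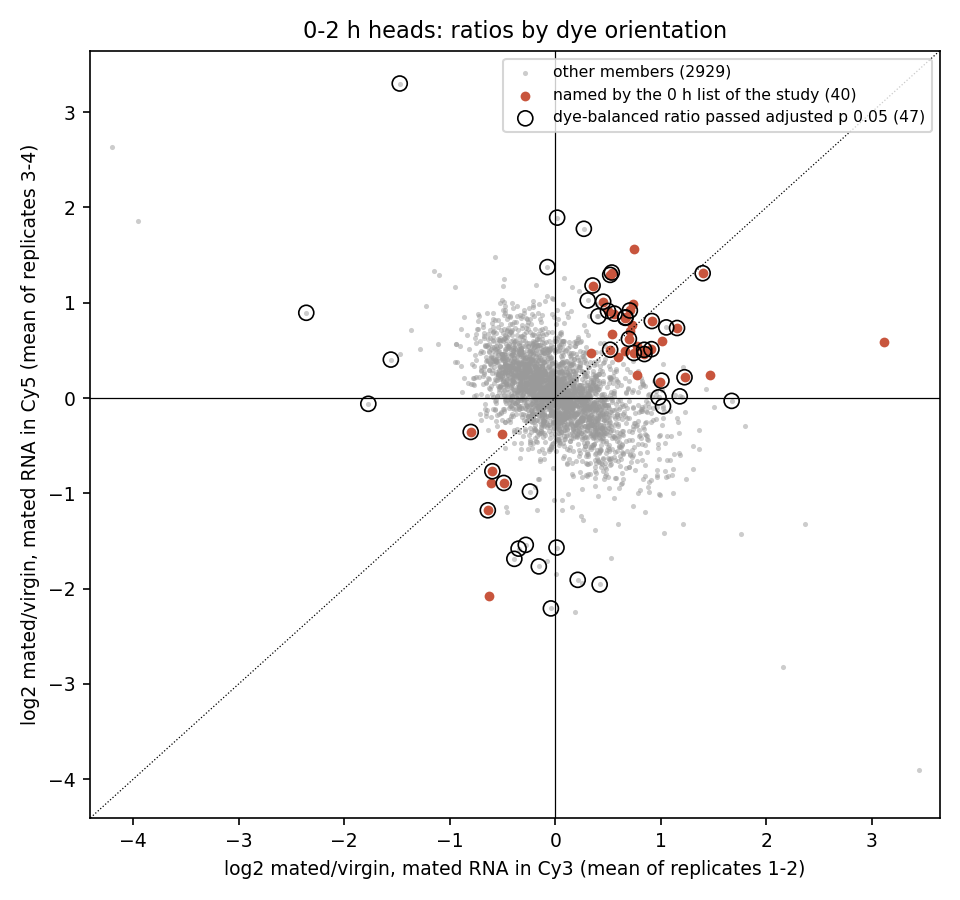
Each point is 1 of the 2969 probes, with its mean log2 mated/virgin ratio on the arrays that carried mated RNA in Cy3 (x axis) and in Cy5 (y axis). The cloud slopes downward (r = -0.46). The 40 genes named by the study's list for 0-2 h (red) lie in the quadrants where both orientations share a sign. That list was drawn from these same arrays, so the shared sign is no independent evidence. Circles mark the 47 probes whose dye-balanced ratio passed an adjusted p of 0.05.

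Each ratio was therefore split. The dye-balanced log2 ratio is the average of the mean under either orientation, and the dye-dependent component is the mean with mated RNA in Cy3 minus that with mated RNA in Cy5, divided by 2. Over the 2969 probes the dye-dependent component had an SD of 0.36 and the dye-balanced ratio an SD of 0.22, with a median of 0.02. In the limma fit with a dye term the dye-dependent component passed an adjusted p of 0.05 for 770 of 2556 probes, 328 of them above 0 (12.8% of the probes tested) and 442 below (17.3%). The same component was correlated across probes with that of the 24 h arrays (r = 0.49, 1576 probes) and of the 48 h arrays (r = 0.42, 1423 probes), and gave r = -0.07 with the 72 h arrays (2032 probes). The last value takes replicates 1 and 2 of 72 h as 1 orientation. Over 593 probes, deviations from the mean on replicates 1 and 2 of 0-2 h correlated at 0.12 to 0.38 with replicates 1 and 4 of 72 h. With replicates 2 and 3 of 72 h they gave -0.32 to -0.25. The reason was not tested.

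Without a dye term, the mean log2 ratio passed for 1 of the 2969 probes, CG12896, which was higher in mated females. Over all 3871 probes with at least 2 values this test passed for 1 higher probe (0.0258%) and 2 lower probes (0.0517%). At an unadjusted p under 0.05, 80 of the 2969 probes were higher and 23 lower, together 3.47%, where among all probes with at least 2 values 3.87% were higher and 2.45% lower. The 902 probes seen in 1 orientation only passed more often, 142 of them or 15.7%, with 70 higher and 72 lower, and 890 of the 902 had been read on replicates 1 and 2 alone. For those probes a dye effect and a response to mating cannot be told apart. Of the 100 entries in the study's list for 0-2 h, 99 matched a row. The 40 on probes seen in both orientations comprised 33 higher and 7 lower genes. A further 58 rested on 1 orientation, 30 higher and 28 lower, and 57 of them on replicates 1 and 2.

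With the dye term in the fit, 31 of 2556 probes with 3 or 4 values were higher in mated females (1.21%) and 16 lower (0.626%). The higher probes had a median of 0.72 on the log2 scale and reached 1.35, the lower ones a median size of 0.81, and 2 in each direction changed by 2-fold or more. Of the 47, 26 have a name. The list for 0-2 h gave 23 of these names, 19 higher and 4 lower, out of its 34 genes with 3 or 4 values. That list was drawn from these same arrays, so its counts and directions are no independent evidence. Every array gave the same sign for 35 of the 47, 25 of the 31 higher and 10 of the 16 lower probes, and 26 of the 47 have a single array in 1 orientation. Among the 1232 probes with 4 values alone, 14 were higher and 1 lower, and without replicate 2 CG12896 was the 1 probe left.

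CG12896, a 1-Cys peroxiredoxin that the RefSeq gene table also calls Prx12896, had the smallest spread between arrays of the named genes that passed. Peroxiredoxins of this group reduce peroxides. Its log2 ratios were 1.34 and 1.46 with mated RNA in Cy3 and 1.28 and 1.34 with mated RNA in Cy5. All 4 arrays thus gave more than 2-fold as much RNA in mated females, and the orientations overlapped. The dye-balanced ratio was 1.35 ± 0.09 (SE, n = 4), or 2.56-fold, with an adjusted p of 0.000148, and the mean ratio without a dye term had an adjusted p of 0.0327. Prx2540-2 (Prx6c in the RefSeq table), another enzyme of the family, gave 0.78 and 0.55 in Cy3 and 0.88 and 0.81 in Cy5, a dye-balanced ratio of 0.76 ± 0.09 (adjusted p = 0.00355, SE, n = 4). The genes of this family are near copies of each other, so the 2 probes may have read each other's RNA. Of the 4 family genes listed, these 2 were measured in both orientations, and both were higher in mated females. The list for 0-2 h supplied both names, so the count, beside 1.21% of all probes, is a description.

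Dopamine and amine metabolism was represented by a pair of enzymes. Of 14 gene names listed for this pathway, 2 were measured in both orientations and both passed with a dye term, with ratios that shared a sign on every array. For ple, tyrosine hydroxylase and the rate-limiting enzyme of dopamine synthesis, the log2 ratios were 0.51 and 0.82 in Cy3 and 0.84 on replicate 3, with no value on replicate 4. The dye-balanced ratio of ple was 0.75 ± 0.13 (adjusted p = 0.0197, SE, n = 3). Dat, the dopamine N-acetyltransferase now named speck, gave 0.51 and 0.53 in Cy3 and 0.76 and 0.25 in Cy5. That amounts to 0.51 ± 0.11 (adjusted p = 0.0490, SE, n = 4), close to the threshold. Both names came from the study's list for 0-2 h, so that both passed, where 1.21% of all probes were higher, says nothing of the pathway.

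Genes of ribosome production had mean ratios above 0, and some of them passed. Of 11 listed, 8 were measured in both orientations, all 8 had a mean above 0, and 3 of the 6 with 3 or 4 values passed. The list for 0-2 h, drawn from these arrays, supplied 7 of the 8 names, so these counts follow from that choice and are given as a description, beside the 1.21% of all probes that were higher. The dm gene, which encodes the Myc transcription factor, a driver of ribosome production, gave 0.44 and 0.63 in Cy3 and 1.32 on replicate 3, a dye-balanced ratio of 0.93 ± 0.12 (adjusted p = 0.00492, SE, n = 3). The dye-dependent component of dm, at -0.39, also passed (adjusted p = 0.0402). The 18S rRNA probe gave 0.97, 1.34, 0.60 and 0.87 on replicates 1 to 4, a ratio of 0.94 ± 0.10 (adjusted p = 0.00250, SE, n = 4), and the 5.8S rRNA probe gave 0.61, 0.81, 0.84 and 1.00, a ratio of 0.81 ± 0.10 (adjusted p = 0.00300). Both rRNA probes were above 0 on every array at 0-2 h, but both spread widely at 24 h. The means there were 0.38 ± 3.16 for 18S and 1.01 ± 2.56 for 5.8S (SD, n = 3 each). The RNA was reverse transcribed from oligo dT, and whether these probes followed the amount of rRNA was not tested.

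Genes for proteins of the ribosome and of the nucleolus, the site of rRNA synthesis, did not pass. Nopp140 gave 1.94 and 1.00 in Cy3 and 0.24 on replicate 3 (adjusted p = 0.0569 with the dye term). Nop56 and nop5, core proteins of the particles that methylate rRNA, had 2 values each, 0.72 and 0.77 for Nop56 and 0.71 and 0.71 for nop5, which leaves no test with a dye term. The large subunit protein gene RpL3 ranged between 0.13 and 1.42 over 4 arrays (adjusted p = 0.0955). Nop60B, the pseudouridine synthase that a later list named, went with the dye, at 0.98 and 1.06 in Cy3 and -0.21 on replicate 4.

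Of 13 genes listed for secreted and storage proteins of the fat body, 4 were measured in both orientations and 3 passed, all higher (1.21% of all probes were). Of the 3, fit and Lsp1beta owe their names to the list for 0-2 h. The gene fit, whose product is secreted from the head fat body and is known to be more abundant in females, gave 0.85 and 0.84 in Cy3 and 0.62 and 0.39 in Cy5, a ratio of 0.67 ± 0.09 (adjusted p = 0.00492, SE, n = 4). The larval serum storage protein gene Lsp1beta gave 0.16 and 0.75 in Cy3 and 1.17 and 0.85 in Cy5, a ratio of 0.73 ± 0.12 (adjusted p = 0.0118, SE, n = 4). Lsp2, another storage protein of that kind, depended on the dye. It gave -0.39 and 0.42 with mated RNA in Cy3 and 1.99 and 1.80 with mated RNA in Cy5. Its dye-balanced ratio of 0.96 ± 0.13 passed (adjusted p = 0.00492, SE, n = 4), but so did its dye-dependent component of -0.94 (adjusted p = 0.00231). Without a dye term none of the 3 passed, with an adjusted p of 0.469 for fit, 0.639 for Lsp1beta and 0.751 for Lsp2. Obp99b, an odorant binding protein of the fat body, gave 0.59 and 0.86 in Cy3 and -0.44 on replicate 3 (adjusted p = 0.663).

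Of 15 genes listed for serine, methionine, folate and transamination, 9 were measured in both orientations, and 2 of the 8 with 3 or 4 values passed, both higher (1.21% of all probes were). The list for 0-2 h had named both. These were aay, phosphoserine phosphatase and the last step of serine synthesis, and CG10621, a predicted homocysteine S-methyltransferase, which makes methionine. The 4 ratios of aay lay between 0.54 and 0.81, with little spread between the dyes, and gave a dye-balanced ratio of 0.66 ± 0.10 (adjusted p = 0.00603, SE, n = 4). CG10621 gave 0.43 and 0.62 in Cy3 and 1.29 on replicate 4, a ratio of 0.91 ± 0.12 (adjusted p = 0.00550, SE, n = 3). The dye-dependent component of CG10621, at -0.39, also passed (adjusted p = 0.0414). CG6910 (Miox in the RefSeq table), myo-inositol oxygenase, was above 0 on every array but differed by dye, at 0.35 and 0.36 in Cy3 and 1.30 and 1.06 in Cy5. Its ratio of 0.77 ± 0.10 passed (adjusted p = 0.00355, SE, n = 4).

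A further 7 genes named by the list for 0-2 h were higher. The predicted membrane transporter CG15096 had 4 ratios between 0.48 and 1.05 (0.71 ± 0.10, adjusted p = 0.00484, SE, n = 4), and the predicted mitochondrial carrier CG5254 had 3 between 0.73 and 1.10 (0.86 ± 0.13, adjusted p = 0.0111, SE, n = 3). CG12736 (mEFTu2), a mitochondrial translation elongation factor, gave 0.56 and 0.56 in Cy3 and 0.89 on replicate 4 (0.72 ± 0.12, adjusted p = 0.0173, SE, n = 3). CG14542 (Vps2), a subunit of the complex that buds vesicles into endosomes, ranged between 0.38 and 1.08 over 4 arrays (0.65 ± 0.11, adjusted p = 0.0122, SE, n = 4). CG5053 (RASSF8), whose product acts at cell junctions, showed the widest gap between dyes of the named genes that passed and kept 1 sign, at 1.22 and 1.23 in Cy3 and 0.25 and 0.18 in Cy5. Its dye-balanced ratio was 0.72 ± 0.09 (adjusted p = 0.00355), with an adjusted p of 0.654 where the dye was left out of the fit. None of the 7 passed without a dye term. The other 2 higher genes were B4, with 0.81 and 1.02 in Cy3 and 0.51 on replicate 4, and CG9498, with 3 ratios between 0.47 and 0.87 and an adjusted p of 0.0494.

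The 4 genes from the list for 0-2 h that were lower in mated females with the dye term were below 0 on every array that read them. CG1146 gave -0.67 and -0.61 in Cy3 and -1.18 on replicate 3, a ratio of -0.91 ± 0.12 (adjusted p = 0.00492, SE, n = 3), or 1.88-fold lower. CG33214 (Glg1), a Golgi glycoprotein, gave -0.44 and -0.54 in Cy3 and -0.89 on replicate 3, a ratio of -0.69 ± 0.12 (adjusted p = 0.0219, SE, n = 3). CG8147, a predicted alkaline phosphatase, gave -1.04 and -0.15 in Cy3 and -0.62 and -0.92 in Cy5, a ratio of -0.68 ± 0.14 (adjusted p = 0.0452, SE, n = 4). CG17325 had 4 ratios between -1.14 and -0.25 (adjusted p = 0.0490). The last pair were just inside the threshold, and among probes with 4 values alone 1 probe, without a name, was lower.

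**Figure D2:**
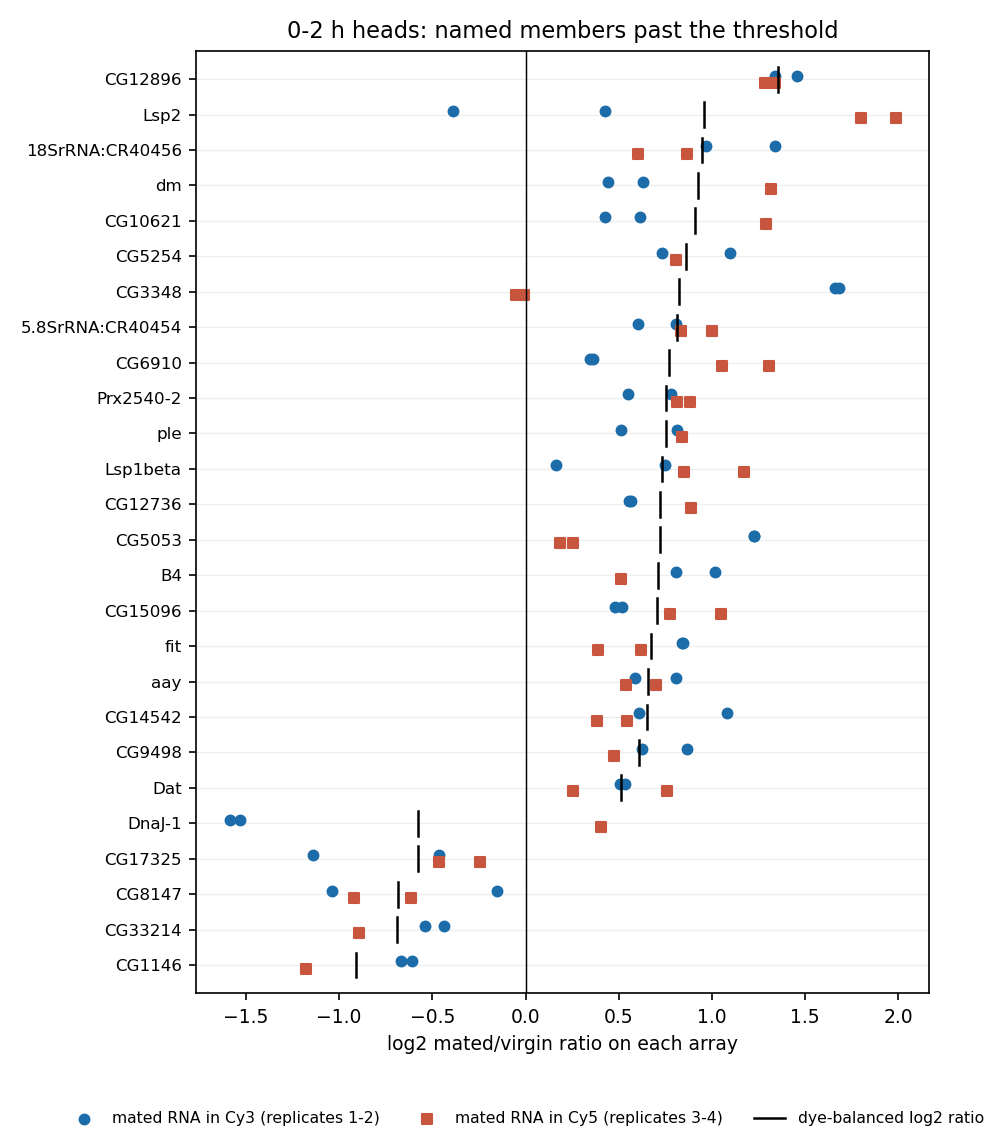
Log2 mated/virgin ratios of the 26 named genes whose dye-balanced ratio passed an adjusted p of 0.05, 1 row per gene, with circles for arrays that carried mated RNA in Cy3, squares for those that carried it in Cy5, and a bar at the dye-balanced ratio. The 23 genes from the study's list for 0-2 h keep 1 sign on every array, with CG12896 at the top between 1.28 and 1.46. Since that list was drawn from these arrays, their shared sign is no independent evidence. Lsp2, CG3348 and DnaJ-1, named by later lists, have values on both sides of 0.

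The other 3 named genes that passed came from later lists, and each changed sign with the dye or lay near 0 under 1 orientation. For CG3348, a gene that the list for 24 h names, the ratios were 1.66 and 1.68 in Cy3 and -0.05 and -0.01 in Cy5, so that the dye-balanced ratio of 0.82 ± 0.09 (adjusted p = 0.00250, SE, n = 4) describes neither orientation. DnaJ-1, the Hsp40 co-chaperone, gave -1.53 and -1.59 in Cy3 and 0.40 on replicate 4, a ratio of -0.58 ± 0.12 (adjusted p = 0.0499, SE, n = 3). Without a dye term none of Lsp2, CG3348 and DnaJ-1 passed. The same holds for every gene from the list for 0-2 h except CG12896, so this does not set the 3 apart. In all, 25 of the 47 probes that passed also had a dye-dependent component past the threshold, and in 9 of the 47 the 2 orientation means had opposite signs. The most extreme, the unnamed probe DAC038M03, gave -1.45 and -1.50 in Cy3 and 3.45 and 3.15 in Cy5. Of the 21 unnamed probes that passed, 10 higher and 11 lower, 12 kept 1 sign on every array.

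Of the 34 genes from the list for 0-2 h with 3 or 4 values, 11 missed the threshold with the dye term, at adjusted p of 0.0562 to 0.0955. They include corto, a chromatin regulator, with 0.89 and 1.09 in Cy3 and 0.17 on replicate 3. The kinase gene Tak1, which acts in innate immune signalling, had 4 ratios between 0.24 and 0.96. The pantothenate kinase gene fbl, for the entry step of coenzyme A synthesis, gave 0.49, 0.19, 0.49 and 0.45, a tight set of small ratios (adjusted p = 0.0728). CG9485, the predicted glycogen debranching enzyme, was below 0 on every array, at -0.57, -0.43, -0.55 and -0.22 (adjusted p = 0.0589). The dihydropyrimidine dehydrogenase gene su(r), for the entry step of pyrimidine breakdown, had 3 ratios between 0.40 and 0.92. The remaining 6 had 2 values, 1 in each orientation, among them the NF-kappaB factor gene Rel at -0.62 and -2.08, the glycosyltransferase gene pgant4 at 0.74 and 1.57, and CG7712 (ND-B14), a subunit of respiratory complex I, at 1.01 and 0.60.

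Genes that entered through later lists were not picked for a ratio on these arrays. Those that the list for 0-2 h also names are left out of them, so they are not an unselected set. Of 138 such genes, 71 had a mean above 0 and 67 below, with a median of 0.02, the same as over the 2969 probes, and with the dye term 2 of 128 were higher and 1 lower. Besides CG3348 and Lsp2, the highest dye-balanced ratios among those with an unadjusted p under 0.05 were 0.67 ± 0.14 for CG11425, of the lipid phosphate phosphatase family, and 0.63 ± 0.13 for CG5618, a predicted decarboxylase (SE, n = 3 each, adjusted p = 0.0569 and 0.0589). The protease gene CG7829 gave -0.01 and 0.30 in Cy3 and 0.92 on replicate 4 (adjusted p = 0.0761). At the low end, bmm, the triglyceride lipase brummer, gave -0.71, -0.71, -0.53 and 0.08, a ratio of -0.47 ± 0.11 (adjusted p = 0.0761, SE, n = 4). CG8112, a predicted sterol acyltransferase, turned with the dye, at -1.78 and -1.15 in Cy3 and 0.29 and 0.63 in Cy5. CG8665, a predicted formyltetrahydrofolate dehydrogenase, was below 0 on 3 of 3 arrays, between -0.89 and -0.19 (adjusted p = 0.192), and the neuropeptide precursor gene Nplp3 had an adjusted p of 0.316.

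The lists for glycogen and sugar and for purines and pyrimidines held no gene that passed. Of 4 measured genes for glycogen and sugar metabolism, 2 had a mean above 0 and 2 below. With the dye term, 1 higher and 1 lower gene had an unadjusted p under 0.05. Of 3 for purines and pyrimidines 2 were above and 1 below, and 1 had an unadjusted p under 0.05. Malic enzyme, encoded by Men, gave -0.39 and -0.21 in Cy3 and 0.99 and 0.86 in Cy5. The aminotransferase genes Got1 and Oat and the purine synthesis gene ade3 were likewise below 0 on both Cy3 arrays and above 0 on both Cy5 arrays, and each had a dye-dependent component past the threshold. Got2, the mitochondrial partner of Got1, gave -0.82, -0.46, -0.33 and 0.08 (adjusted p = 0.127). Ahcy13, S-adenosylhomocysteine hydrolase, was above 0 on 4 of 4 arrays, between 0.08 and 0.31, without passing (adjusted p = 0.316).

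Chaperones and stress genes were little covered. Hsp26, Hsp68 and Hsp67Bb, which the list for 0-2 h names, were read on replicates 1 and 2 alone and are not described. Of 14 genes listed, 3 were measured in both orientations, Tak1, Rel and Hsc70-3, and none passed. With the dye term Tak1 had an unadjusted p under 0.05, and Rel, with 2 values, could not be tested. Without that term the unadjusted p was 0.0142 for Tak1 and 0.0132 for Rel. Hsc70-3, the Hsp70 protein of the endoplasmic reticulum, gave 0.85 and 0.58 in Cy3 and -0.80 and -0.55 in Cy5, a dye-balanced ratio of 0.02 ± 0.10 (SE, n = 4). With DnaJ-1, which stands outside that list, the 2 chaperone genes named on these probes thus gave opposite signs in the 2 orientations, in opposite senses.

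**Figure D3:**
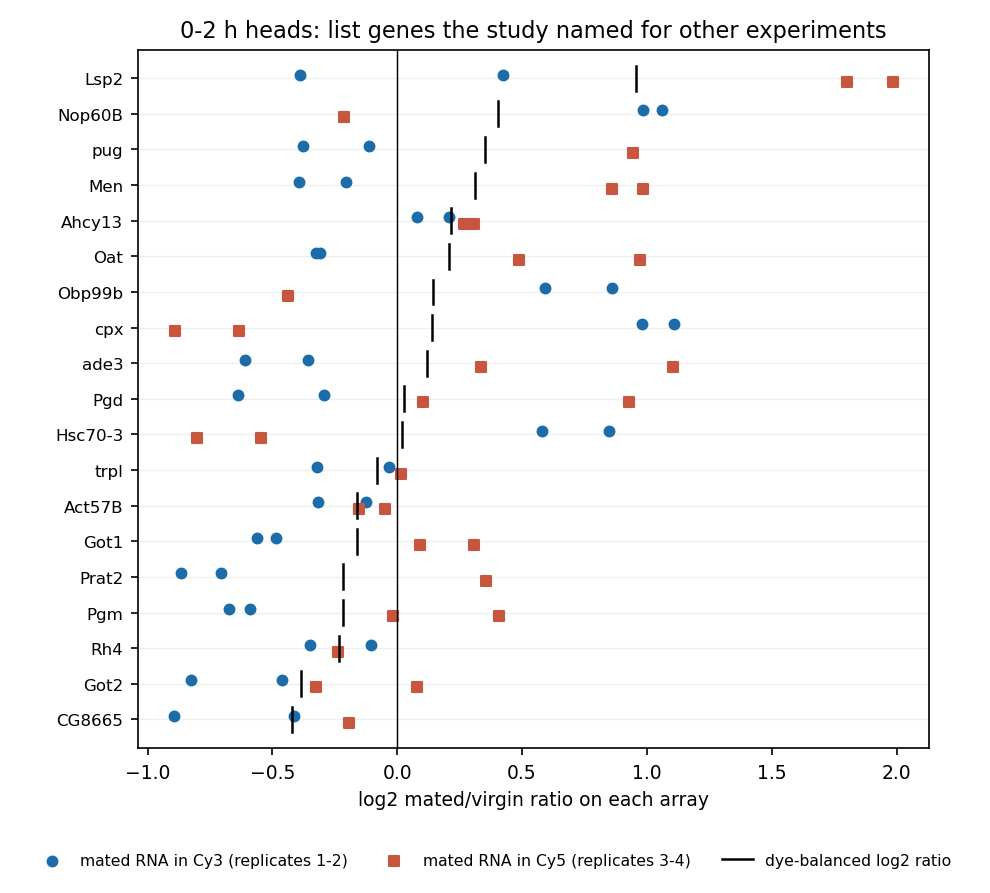
Log2 mated/virgin ratios on each array for the 19 genes of the pathway and marker lists that the study named for later heads or brains and that had 3 or 4 values, drawn as circles (mated RNA in Cy3), squares (mated RNA in Cy5) and a bar (dye-balanced ratio). In 13 of the 19 the circles and squares average to opposite sides of 0, and 13 had a dye-dependent component past the threshold, while 1 of 19, Lsp2, passed on the dye-balanced ratio (7 at an unadjusted p under 0.05).

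Markers of other tissues were sparse. Both photoreceptor genes measured, of 14, lay slightly below 0, trpl with a dye-balanced ratio of -0.08 and Rh4 with -0.23, and the muscle actin gene Act57B, 1 of 8 muscle markers, had -0.16; none of these passed. The neuronal marker cpx, complexin, 1 of 8, gave 0.98 and 1.11 in Cy3 and -0.64 and -0.89 in Cy5. Of 9 ovary markers 1 was measured, Fcp26Aa, a follicle cell protein gene, with 4.40 and 1.84 in Cy3 and 0.58 on replicate 3 (adjusted p = 0.0575); it had the largest mean ratio of the named genes, 2.27 ± 1.94 (SD, n = 3). The dye-dependent component of Fcp26Aa, at 1.27, passed (adjusted p = 0.0408). Whether ovary RNA was carried over into the heads, and so into any other result, was not tested. No sperm or accessory gland marker, of 5, was measured in both orientations. The fat body markers are the 4 genes given above, all with a mean above 0. The list for 0-2 h, drawn from these arrays, named fit and Lsp1beta. Lsp2 and Obp99b had values on both sides of 0 and a dye-dependent component that passed. The 4 means are thus a description and say nothing of the tissue.

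The early response was set against heads at later times, whose arrays held their own virgin controls, on the plates of the print where a row holds the same gene in each experiment. In 1 limma fit of the 16 head arrays, 16 of 1955 probes were higher at 0-2 h than at 24 h and 1 lower, where over all 2406 probes tested 0.790% were higher and 0.0831% lower. Against 48 h, 17 of 1542 were higher and 5 lower, with 1.00% and 0.389% over all 1798 tested. Against 72 h, 1 of 2087 was higher and 0 lower, with 0.0375% and 0.00% of 2665; at an unadjusted p under 0.05 there were 66 higher and 28 lower. Of the 25 genes from the list for 0-2 h that were higher in mated females then and were also read at 24 h, 12 had a mean below 0 at 24 h and 13 above. These genes were picked for their ratios at 0-2 h, so a smaller ratio at another time follows from the choice.

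Of the 31 genes named by the list for 0-2 h and compared with 24 h, 7 differed. Each of the 7 was higher in mated heads at 0-2 h and lower at 24 h. Among them, aay, fit, CG10621 and CG5053 are also on the study's list for 24 h, so they were picked for their ratios at both times. The serine synthesis gene aay, at 0.66 ± 0.12 at 0-2 h (SD, n = 4), stood at -1.46 ± 0.22 at 24 h (n = 3), -0.92 ± 0.18 at 48 h (n = 4) and -0.27 ± 0.32 at 72 h (n = 4). It differed by 2.12 ± 0.20 on the log2 scale from 24 h (adjusted p = 2.74e-05) and by 1.58 ± 0.19 from 48 h (SE, adjusted p = 0.000149). The fat body gene fit followed the same course, at 0.67, -1.77, -0.84 and -0.42 at 0-2, 24, 48 and 72 h, with a difference of 2.45 ± 0.30 from 24 h (adjusted p = 0.000280) and 1.52 ± 0.27 from 48 h (adjusted p = 0.00747). CG10621 stood at 0.78, -1.69, -0.69 and 0.35, a difference of 2.47 ± 0.33 from 24 h (adjusted p = 0.00101) and 1.47 ± 0.30 from 48 h (adjusted p = 0.0242, and 0.114 without replicate 4). Each of these 3 was higher in mated than in virgin heads at the start and lower a day later, with ranges of mean and SD that did not meet.

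Changes of the same direction passed for su(r) and CG15096. For su(r) the difference was 1.64 ± 0.31 from 24 h (adjusted p = 0.0181) and 1.11 ± 0.26 from 48 h (adjusted p = 0.0467), and for CG15096 1.21 ± 0.22 from 24 h (adjusted p = 0.0133) and 0.96 ± 0.21 from 48 h (adjusted p = 0.0268). CG5053 differed by 1.90 ± 0.33 from 24 h (adjusted p = 0.0225) and had no value at 48 h. In fits of just the 8 arrays compared, none of these 3 genes passed, and with replicate number as a block su(r) passed against neither time (adjusted p = 0.0594 from 24 h and 0.124 from 48 h). The storage protein gene Lsp2 made the largest step of the named genes. Its mean was 0.96 ± 1.13 at 0-2 h (SD, n = 4), -4.21 ± 0.43 at 24 h (n = 3), -4.05 ± 0.62 at 48 h (n = 4) and -1.37 ± 0.98 at 72 h (n = 4). Its difference was 5.16 ± 0.57 from 24 h and 5.01 ± 0.51 from 48 h (SE, adjusted p = 0.000114 and 4.56e-05), larger than the dye-dependent component at 0-2 h. Lsp1beta, on a plate outside this comparison, had a mean of 0.73 ± 0.42 at 0-2 h (SD, n = 4) and -3.60 ± 0.89 at 24 h (SD, n = 3).

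CG12896 was the only gene whose ratio at 0-2 h passed against all 3 later times. Its ratios averaged 1.35 ± 0.07 at 0-2 h (SD, n = 4), -0.55 ± 0.45 at 24 h (n = 3), -0.38 ± 0.56 at 48 h (n = 3) and -0.38 ± 0.36 at 72 h (n = 4). The differences were 1.90 ± 0.28, 1.73 ± 0.28 and 1.74 ± 0.26 (SE) from 24, 48 and 72 h, with adjusted p of 0.00235, 0.00361 and 0.0147. With replicate number as a block the difference from 72 h had an adjusted p of 0.0766. Prx2540-2, on a plate outside the comparison, had a mean of 0.04 ± 0.61 at 24 h (SD, n = 3).

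Of the 6 probes with a ratio lower at 0-2 h than at 24 or 48 h, 3 are described here, and CG10680 (24 h), CG8343 and CG8329 (48 h) fall outside the rule for the genes named. The alkaline phosphatase gene CG8147 was lower in mated females at 0-2 h (-0.68 ± 0.39, SD, n = 4), with later means of 2.13, 2.80 and 1.62 (24, 48 and 72 h), and differed by -3.48 ± 0.71 from 48 h (SE, adjusted p = 0.0240, and 0.0603 without replicate 4). CG7829 differed from 48 h by -1.47 ± 0.29 (adjusted p = 0.0240) and Rel by -1.47 ± 0.33 on 2 arrays at 0-2 h (adjusted p = 0.0494, and 0.124 with replicate number as a block). Men was higher at 0-2 h than at 48 h, by 1.47 ± 0.31 (adjusted p = 0.0266). CG7829, Rel and Men did not pass in a fit of the 8 arrays of 0-2 and 48 h. The amine and Myc genes gave no such reversal. The ratios of dm averaged 0.80 ± 0.46 (SD, n = 3), 0.75 ± 0.22 (n = 3), 0.55 ± 0.39 (n = 4) and 0.39 ± 0.29 (n = 3) at 0-2, 24, 48 and 72 h, and no difference from 0-2 h passed (adjusted p = 0.964, 0.753 and 0.938). For ple the means were 0.72 ± 0.18 (SD, n = 3), 0.09 ± 0.78 (n = 3), 0.63 ± 0.21 (n = 3) and 0.21 ± 0.28 (n = 4), and again no difference passed (adjusted p = 0.386, 0.931 and 0.916). These misses do not show that the times act alike: the SE of the differences of ple was 0.30 to 0.32 on the log2 scale.

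**Figure D4:**
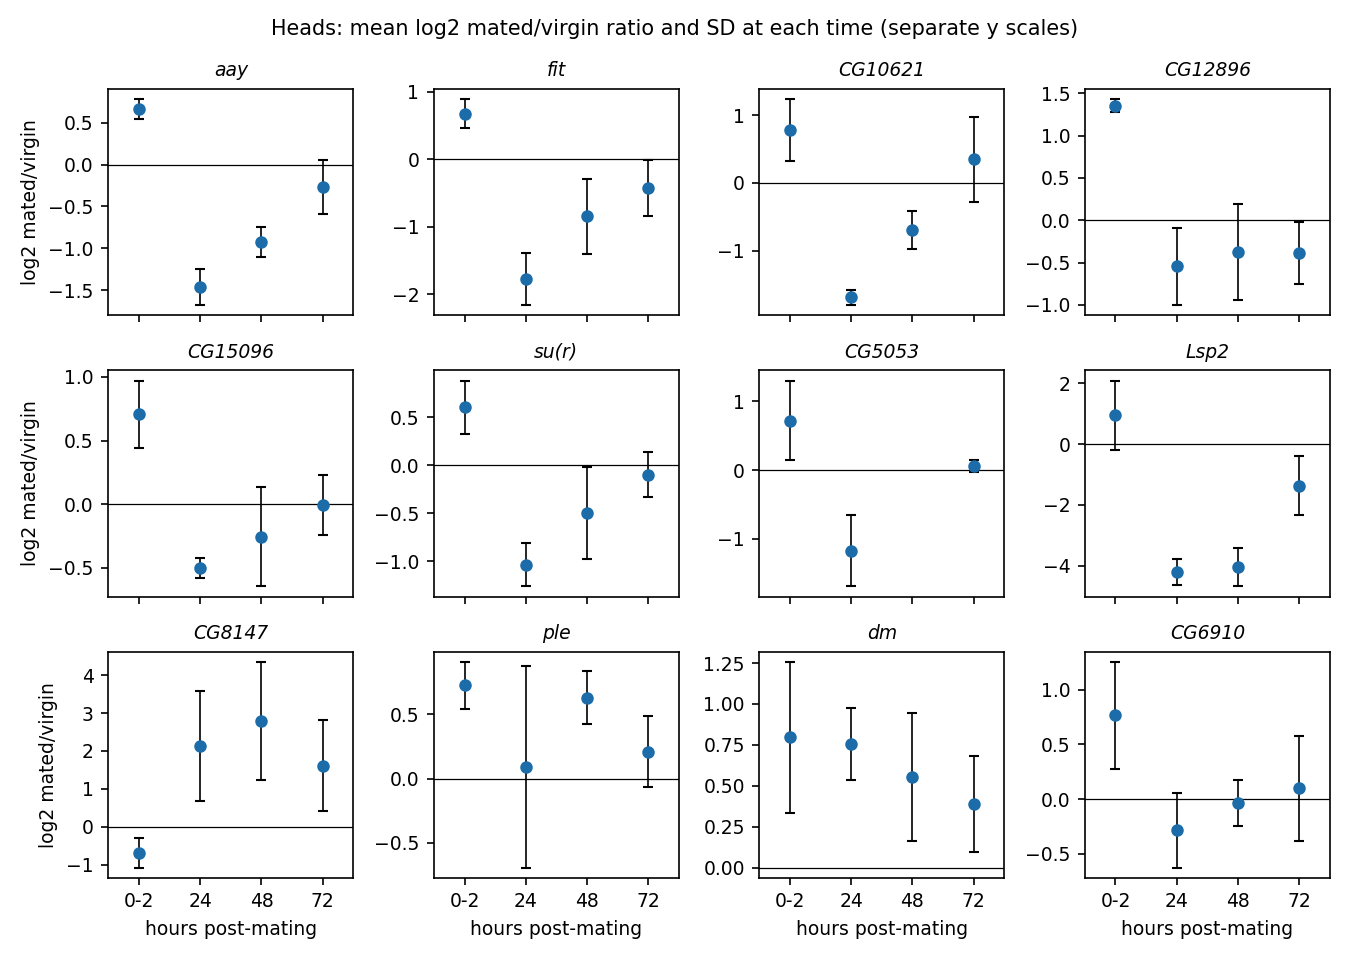
Mean log2 mated/virgin ratio (points) and SD (bars) of 12 genes in heads at 0-2, 24, 48 and 72 h post-mating, shown where at least 2 arrays gave a value, with a y scale of its own for each gene. The genes aay, fit, CG10621, CG12896, CG15096, su(r), CG5053 and Lsp2 lie above 0 at 0-2 h and below 0 at 24 h, CG8147 lies below 0 at 0-2 h and above it later, and dm and ple lie above 0 at every time.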

How the data were processed

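RNA from mated and virgin heads was compared on 4 arrays at 0-2 h. The deposited values are log2 mated/virgin ratios that the authors had normalized (their processing notes name limma); they were taken as turned for the dye swap, on the basis given with the results. Background correction, and why some cells are empty, is not given in the sources. One table holds all 20 arrays. Names were matched by mean ratio (relative tolerance 2e-05) to the study's list of each experiment, and current symbols by CG number to the RefSeq gene table. The study's fold changes and p-values served this match alone.

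Ratios were fitted with limma 3.58.1 (lmFit, eBayes, R 4.3.3). The mean against 0 took probes with at least 2 values, adjusted over all 3871 (Benjamini-Hochberg). The dye term took probes with at least 3 values, adjusted over 2556. Differences between times took the 16 head arrays, print plates 2 to 30 and at least 2 values at each time. "Passed" means an adjusted p under 0.05. No depth or count exists, and 4 arrays limit the precision. Scripts were tested on simulated data. Figures used matplotlib 3.10.9.

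Named genes are the 40 of the list for 0-2 h, the 5 highest and 5 lowest dye-balanced ratios with an unadjusted p under 0.05 from other lists, and measured genes of the pathway and marker lists. Members and lists were chosen with earlier results of these data known. Alternatives were centring or scaling arrays, robust eBayes, probes with 4 values, probes in both orientations only, a dye term, one fit of 16 arrays, a fit of the 8 arrays compared, a replicate block, and each replicate left out. Replicate numbers come from the labels, which tie no samples across times. Deviations of same-numbered arrays from their means correlated at 0.19 to 0.57 between 0-2 and 48 h (557 probes), at -0.01 to 0.42 for 24 h (75 probes) and -0.39 to 0.29 for 72 h (593 probes). As recorded, number and dye orientation coincide at each time. At 72 h, however, replicates 1 and 4 went with replicates 1 and 2 of 0-2 h, and replicates 2 and 3 went against them. The reason was not tested.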

Additional observations from a re-analysis of the deposited data

Results flagged for a closer look

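Among the named genes, 1 had a value far from its others, fbl, at 0.19 on replicate 2 with the other arrays between 0.45 and 0.49; 33 named genes with 4 values were examined, and chance marks about 1 gene in 20.

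A further 20 differences between times passed the test of the difference itself. From 24 h these were Lsp2 (5.16), CG10621 (2.47), fit (2.45), aay (2.12), CG12896 (1.90), CG5053 (1.90), su(r) (1.64) and CG15096 (1.21). From 48 h they were Lsp2 (5.01), CG12896 (1.73), aay (1.58), fit (1.52), CG10621 (1.47), Men (1.47), su(r) (1.11), CG15096 (0.96), CG7829 (-1.47), Rel (-1.47) and CG8147 (-3.48), and from 72 h CG12896 (1.74), all as log2 ratio at 0-2 h minus that at the later time.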

How the results depend on the processing

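The pattern of calls depended on the settings, and the cause was not tested where none is given. The mean without a dye term passed for 1 probe (CG12896), for 0 after centring of arrays on their medians, for 47 with a dye term and for 0 to 0 with any 1 replicate left out. At unadjusted p it gave 103 probes, 43 among probes with 4 values (fewer probes tested), 370 with a dye term and 40 to 100 with a replicate left out (52 without replicate 1, 40 without replicate 2). The dye-balanced ratio passed for 47 probes, 90 with arrays scaled to one spread, 15 with values on all 4 arrays, 17 in one fit of the 16 head arrays and 1 to 24 with a replicate left out (16, 1, 17 and 24 without replicates 1, 2, 3 and 4); CG12896 passed in each. The dye-dependent component passed for 770 probes, 412 with 4 values, 283 in the fit of 16 arrays and 56 to 464 with a replicate left out (102, 56, 464 and 451); centring each array changed its split to 364 below and 411 above 0, against 442 and 328. The difference from 24 h passed for 17 probes and for 5 in a fit of the 8 arrays compared, 12 to 17 with a replicate left out. For 48 h it was 22, 11 and 8 to 26 (8 without replicate 4). For 72 h it was 1, with 0 to 1 when a replicate was left out (0 without replicate 1, 2 or 3). With the replicate block the differences passed for 17 probes at 24 h, 20 at 48 h and 0 at 72 h, where CG12896 no longer passed; the block also ended the calls of su(r) (adjusted p = 0.0594 from 24 h, 0.124 from 48 h) and Rel (0.124), and of no other named gene. Of 2240 values of named genes under alternatives, 2085 kept their side of the threshold, 98 no longer passed and 57 newly passed. A change of direction that passed under either setting occurred for 0. Changes of sign where neither setting passed are among the 2085. An example is the mean of Hsc70-3, at 0.02 and at -0.03 with arrays scaled to one spread. The dye fit with 2 values was not run, since it leaves no residual. Replicate 4, with 1818 values, limits which probes could be tested.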
